A study of Mus musculus with 4 samples.

Results

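Alveolar macrophages are the resident phagocytes of the airspaces, and the ones described here are the singlet barcodes of a mouse lung library to which the study's authors gave the class Alveolar Macrophage together with a passing quality flag. They number 227 of the 6084 lung singlet barcodes that passed, or 3.73% (exact 95% interval 3.27 to 4.24%), and 227 of the 19763 barcodes in the whole series. They are set against the 283 barcodes of the authors' Macrophage class in the same library, and then against the other lung classes. The sources used here do not say how the authors made their classes, so a difference between classes is a description of those classes and not a test of them.

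Alveolar macrophages live on the epithelial surface, where they take up inhaled particles and spent surfactant. Their identity is known to depend on GM-CSF, which type II pneumocytes make and which acts through the transcription factor PPARg, and on TGF-beta. They are known for high lipid uptake and export, for the surface lectin Siglec-F, and, in healthy lung, for low antigen presentation. Macrophages of the lung interstitium and monocytes are instead known for Cx3cr1, Ccr2 and, in part, complement C1q.

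The study made 4 droplet libraries from C57BL/6J mice, a common inbred strain: lung singlets and lung multiplets (clusters of attached cells) from whole lung, and the same pair from small intestinal epithelium. Tissues were dissociated mechanically and enzymatically, and unique molecular identifiers (UMIs, each a counted RNA molecule) were counted near the 3′ end of transcripts. Age, sex and number of animals are not given in the labels. Every value below comes from the lung singlet library unless another is named, and because a class in 1 library has no replicate, no test was run and every interval covers counting error only.

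The alveolar macrophage barcodes were deep. They held 8393 to 31207 UMIs with a median of 14028, against 2262 to 38548 with a median of 8574 in the Macrophage class. The median number of genes per barcode was 3832 in alveolar macrophages and 2665 in the Macrophage class, and 1120 and 1024 once every barcode was thinned to 2000 UMIs. Mitochondrial RNA made up a median of 3.08% of UMIs in alveolar macrophages and 2.31% in the Macrophage class. No alveolar macrophage barcode sequence recurred in another library, and the doublet caller Scrublet marked 18 alveolar macrophage barcodes (7.93%) and 10 Macrophage barcodes (3.53%).

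The label held for 219 of the 227 barcodes when checked against the markers Chil3, Ear2, Marco and Plet1. In those 219 barcodes the summed level of the 4 markers ran from 2562 through a median of 10396 to 25719.7 CPM, where CPM is the barcode's or class's UMI count scaled to a total of 1000000 UMIs. The Macrophage class had a median of 81.7 CPM and a highest barcode of 4066 CPM, and only 5 of the 219 alveolar macrophage barcodes lay at or under that highest barcode. The remaining 8 alveolar macrophage barcodes (3.52%) had 0 to 2 UMIs of the 4 markers among 15037 to 30770 UMIs, whereas the next lowest barcode had 50. These 8 barcodes go against the label. Where leaving them out moves a level or ratio given below by more than 1.5 times, the value without them is given too. A wider removal left out these 8 barcodes. In both classes it also left out barcodes with 1% or more type II or club RNA, or marked as doublets. It set no marker limit in the Macrophage class, and kept 199 alveolar macrophage and 271 Macrophage barcodes. Both removals were chosen after seeing the data.

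Chil3 encodes a secreted chitinase-like protein and was the most abundant of the 4 markers. Its UMIs per barcode ran from 29 through a median of 112 to 296 in the 219 alveolar macrophage barcodes, and from 0 through 0 to 78 in the Macrophage class. Summed over each class it stood at 7640.2 CPM in alveolar macrophages and 239.7 CPM in the Macrophage class, a ratio of 31.9-fold (95% interval 29.4 to 34.5). The gene lies on chromosome 3, minus strand, at 106147554 to 106167564 (mm10). With every barcode thinned to 2000 UMIs, 96.5% of alveolar macrophage barcodes had a Chil3 UMI, compared with 17.0% of Macrophage barcodes and 1.75% of Fibroblast-1 barcodes, a class that should lack the gene. The median depths before thinning were 14028, 8574 and 6562 UMIs in those classes, and the fibroblast share is taken as background.

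Plet1 encodes a membrane protein named for its expression in placenta, and lies on chromosome 9, plus strand, at 50494525 to 50505482 (mm10). Its UMIs ran from 0 through 16 to 38 in the 219 barcodes, with a UMI in 218 of them, whereas 9 of 283 Macrophage barcodes had any. Its level was 1069 CPM in alveolar macrophages and 5.34 CPM in the Macrophage class, a ratio of 200.4-fold (95% interval 119 to 367). The next highest class was the ciliated cells, at 298 CPM and with a UMI in 43.6% of barcodes at the thinned depth, so that alveolar macrophages exceeded them 3.59-fold. Plet1 stood at 60.5 CPM in the 10 mesothelial barcodes, on 6 UMIs, and at 15.2 CPM in type II pneumocytes, both above the Macrophage class. Chil3 in ciliated cells stood at 103 CPM, but 90.1% of those UMIs came from 1 barcode.

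Marco encodes a scavenger receptor for particles and bacteria, on chromosome 1, minus strand, at 120474538 to 120505024 (mm10). It was the least even of the 4 markers. Of the 219 barcodes, 130 had no Marco UMI, 44 had 1 or 2, 45 had 3 or more and 16 had 10 or more, with a highest count of 48. Its class level was 153 CPM in alveolar macrophages and 0.762 CPM in the Macrophage class, where it rested on 2 UMIs, for a ratio of 200.4-fold with a wide interval of 55.2 to 1659. At this depth a barcode without a Marco UMI is not shown to lack the transcript.

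**Figure D1:**
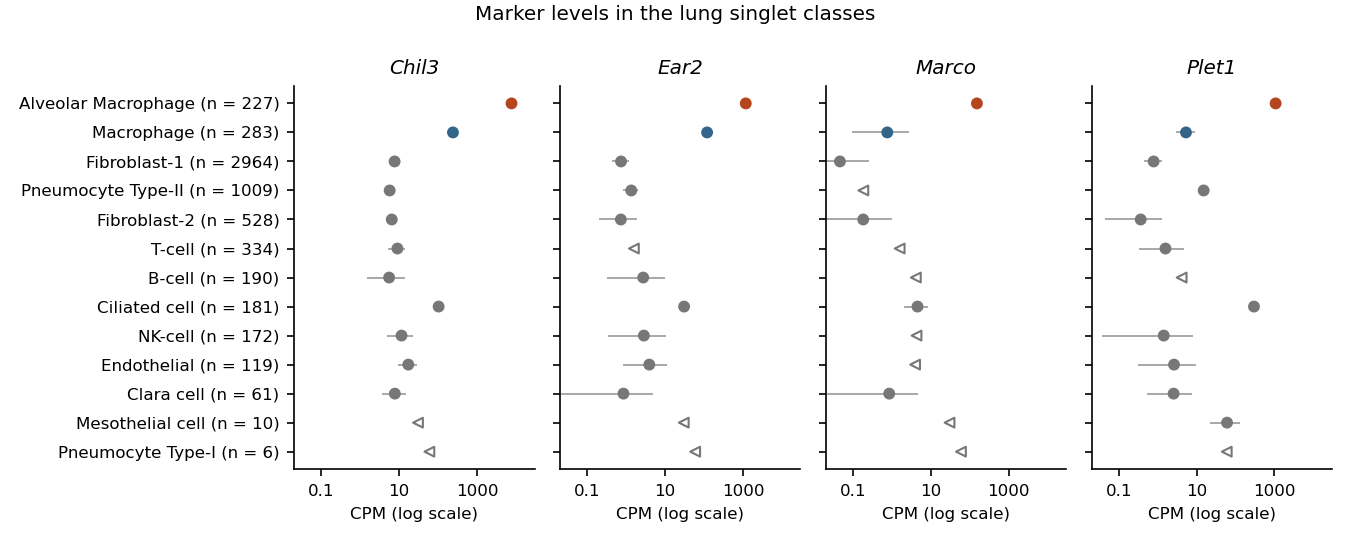
CPM of Chil3, Ear2, Marco and Plet1 (log axes) in the 13 lung singlet classes, alveolar macrophages on top; bars are exact 95% Poisson intervals, and open triangles mark classes with no UMI, drawn at the level of 3 UMIs. Alveolar macrophages lie highest in every panel, with the Macrophage class next for Chil3 and Ear2 and the ciliated cells next for Plet1 at 298 CPM.

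Ear2 and Ear1 encode eosinophil-associated ribonucleases. Ear2 ran from 0 through 16 to 65 UMIs in the 219 barcodes and from 0 through 0 to 17 in the Macrophage class, and its level was 1184 CPM in alveolar macrophages and 120.4 CPM in the Macrophage class, a ratio of 9.83-fold (95% interval 8.76 to 11.1). Ear1 stood at 618 CPM in alveolar macrophages and 4.19 CPM in the Macrophage class, a ratio of 147-fold (95% interval 82.2 to 296). How the UMIs divide between the copies is uncertain. The longest annotated transcripts of the genes (713 bases for Ear1 and 719 for Ear2) were identical at 691 of 719 aligned positions, or 96.1%, and their last 200 bases, where this library counts, at 198 of 200. The similarity extends upstream of the RefSeq starts, which is why both sequences are shown. These are the 250 bases before each RefSeq start (GRCm38.p6, chr14:43819640-43819889 on the minus strand for Ear1 and chr14:44102404-44102653 on the plus strand for Ear2), 5′ to 3′, with capitals at the 2 positions that differ among 248 aligned.
Ear1: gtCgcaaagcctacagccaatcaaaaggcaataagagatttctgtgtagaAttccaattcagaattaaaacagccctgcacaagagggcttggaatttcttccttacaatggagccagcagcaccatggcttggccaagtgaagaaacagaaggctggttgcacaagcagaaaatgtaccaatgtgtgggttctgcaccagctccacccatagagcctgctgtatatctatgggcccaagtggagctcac
Ear2: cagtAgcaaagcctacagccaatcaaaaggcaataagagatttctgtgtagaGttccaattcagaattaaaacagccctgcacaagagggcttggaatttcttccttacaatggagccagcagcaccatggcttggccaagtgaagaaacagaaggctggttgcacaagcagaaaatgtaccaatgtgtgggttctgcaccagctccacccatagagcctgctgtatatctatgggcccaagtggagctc
The aligned stretch was identical at 246 of 248 positions (99.2%) with no gap. Another annotation gives Ear1 the longer span 43818765 to 43875517, so the Ear1 window lies inside that gene model and not upstream of it.

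All 16 genes of the list of alveolar macrophage markers were at least 2-fold higher in alveolar macrophages than in the Macrophage class, and 14 were at least 2-fold above every other class of 50 or more barcodes. Over the 8937 genes with at least 30 UMIs in either class, 1351 (15.1%) were higher and 1099 (12.3%) were lower by the same rule, and 378 of 8298 genes (4.56%) were above every other class. The list was chosen for this pattern, so its count describes the class and is no evidence for it. The other lists were also chosen with earlier results of these data known, and some share members with this list. Their counts below are descriptions as well. Siglecf, the gene of Siglec-F, stood at 173 CPM in alveolar macrophages and 2.67 CPM in the Macrophage class, a ratio of 64.7-fold (95% interval 31.2 to 162). Itgax, which encodes CD11c, stood at 295 CPM in alveolar macrophages and 58.7 CPM in the Macrophage class. Car4, a carbonic anhydrase, and Krt19, a keratin, were the exceptions among the 16. Endothelial cells had more Car4 (309 CPM, against 219 in alveolar macrophages), and ciliated cells came close in Krt19 (431 CPM, against 639).

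The genes farthest above every other class were only partly the familiar markers. Krt79, a keratin, led at 473 CPM in alveolar macrophages, 124-fold above the highest other class, and 194 of the 219 barcodes had a Krt79 UMI. Olr1, a receptor for oxidized low-density lipoprotein, stood at 304 CPM and 114-fold above the next class. F7, which encodes coagulation factor VII, stood at 270.3 CPM and 107-fold above. Atp6v0d2, a subunit of the proton pump of lysosomes and also on the marker list, stood 81.9-fold above, and Gal, the neuropeptide galanin, 70.4-fold. Tfec, a transcription factor of the MiT family, stood at 118 CPM and Fpr1, a receptor for formylated peptides, at 164 CPM, 51.5-fold and 28.6-fold above the Macrophage class, the next highest in both. Cpne5, a calcium-binding copine, and Acaa1b, a peroxisomal thiolase, were 39.9-fold and 39.3-fold above the next class.

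Receptors and regulators of alveolar macrophage identity divided. Of 22 genes counted, 11 were higher, 4 were lower and 7 lay within the 2-fold limits, and 7 were above every other class. The shares over all genes were 15.1% higher, 12.3% lower and 4.56% above every other class. The list's median log2 ratio was 0.70, against 0.15 over all counted genes. Csf2rb, the signalling chain of the GM-CSF receptor, stood at 333 CPM in alveolar macrophages and 101 CPM in the Macrophage class, a ratio of 3.30-fold (95% interval 2.88 to 3.79). Csf2ra, the ligand-binding chain, differed little, at 145 CPM in alveolar macrophages and 130.3 CPM in the Macrophage class. Pparg stood at 149 CPM in alveolar macrophages and 32.4 CPM in the Macrophage class (4.61-fold, 95% interval 3.65 to 5.87), with a UMI in 185 of the 219 barcodes and 52 of 283 Macrophage barcodes. Its partner Rxra was 6.55-fold higher.

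Bhlhe41, a repressor known to regulate the identity and self-renewal of these cells, showed the widest gap among the higher genes of this list, at 153 CPM in alveolar macrophages and 6.10 CPM in the Macrophage class. The Bhlhe41 ratio was 25.0-fold (15.3 to 44.1), and 68.5-fold after the wider removal. Its relative Bhlhe40 lay at the 2-fold limit (2.02-fold, and 1.90-fold with TMM scaling). Egr2, an early growth response factor, was 5.27-fold higher, and the TGF-beta receptor genes Tgfbr1 and Tgfbr2 were 2.67-fold and 2.38-fold higher. Spi1, which encodes the myeloid master regulator PU.1, was nearly level at 465 CPM in alveolar macrophages and 489 CPM in the Macrophage class. The transcription factor genes Maf and Irf8 were lower, at ratios of 0.286 and 0.306, and the Maf ratio was 0.0962 after the wider removal.

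Genes of lipid and surfactant handling were mostly higher in alveolar macrophages. Of the list's 28 genes 21 were higher and 2 lower, the median log2 ratio being 1.93, and 11 were above every other class. The shares over all genes were 15.1% higher, 12.3% lower and 4.56% above every other class. Fabp1, Abcg1 and Cidec are also on the marker list and so are counted in both. Over the barcodes the summed list ran from 4756 through 10466 to 23234 CPM in the 219 alveolar macrophages, and from 228 through 3608 to 52464 CPM in the Macrophage class, so the medians were far apart and the ranges overlapped.

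Genes of uptake and storage were among the highest. Lpl, lipoprotein lipase, had 1, 23 and 129 UMIs in the lowest, median and highest of the 219 barcodes and a level of 1889 CPM in alveolar macrophages and 76.6 CPM in the Macrophage class (24.7-fold, 95% interval 21.4 to 28.5). Fabp1, a fatty acid binding protein best known from liver and gut, stood at 560.4 CPM in alveolar macrophages and 3.81 CPM in the Macrophage class (147-fold, 95% interval 79.8 to 307). Fabp4 and Fabp5, the binding proteins more usual in macrophages, were 4.99-fold and 3.90-fold higher. Cidec and Plin2, which coat lipid droplets, stood at 239 and 1219 CPM in alveolar macrophages and 1.14 and 241 CPM in the Macrophage class.

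Genes of lipid breakdown and export followed the same direction. Abcg1, which exports cholesterol and is required for surfactant homeostasis in mice, stood at 1530.4 CPM in alveolar macrophages and 72.0 CPM in the Macrophage class (21.2-fold, 95% interval 18.4 to 24.7), and Abca1 was 6.11-fold higher. Nceh1 and Mgll, hydrolases of cholesterol esters and monoacylglycerol, were 17.7-fold and 23.0-fold higher. Pla2g15, a lysosomal phospholipase known to degrade surfactant phospholipid, was 9.29-fold higher. Apoe was the clearest exception, at 162 CPM in alveolar macrophages and 2031 CPM in the Macrophage class, a ratio of 0.0795, or 0.0413 after the wider removal.

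**Figure D2:**
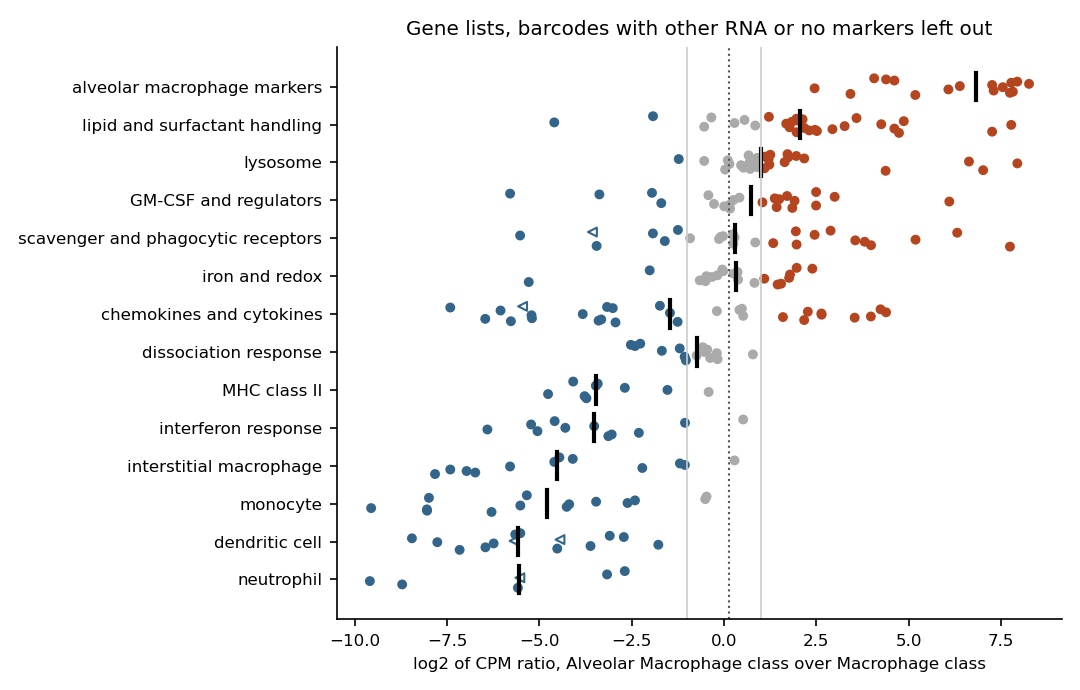
Log2 ratio of class CPM, Alveolar Macrophage over Macrophage class, for each counted gene of 14 lists (points). Values are from 199 alveolar macrophage and 271 Macrophage barcodes. The 8 unmarked alveolar macrophage barcodes were removed, as were barcodes of either class with 1% or more type II or club RNA or marked as doublets. Thick bars are list medians, the dotted line the median of all genes and thin lines the 2-fold limits. Open triangles are genes with no UMI in alveolar macrophages, drawn at 3 UMIs. Lipid genes lie mainly right of the limit, with a median of 2.06, and interferon genes mainly left, with a median of -3.52.

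Phagocytic receptors divided rather than moved as a group. Of 25 counted genes 11 were higher and 6 lower, against 15.1% and 12.3% over all counted genes. Marco and Itgax, among the higher ones, are also on the marker list. The receptors for apoptotic cells Mertk and Axl were 32.0-fold and 11.1-fold higher, at 256 and 496 CPM in alveolar macrophages, and the third member of that family, Tyro3, had no UMI in either class. Mrc1, the mannose receptor, stood at 827 CPM in alveolar macrophages and 59.1 CPM in the Macrophage class, with a UMI in all 219 barcodes and in 40 of 283 Macrophage barcodes. Clec4n, which encodes dectin-2, stood at 375 CPM in alveolar macrophages and 29.0 CPM in the Macrophage class, and the toll-like receptors Tlr2 and Tlr4 were 3.53-fold and 5.99-fold higher. Itgam, which encodes CD11b, was lower at 3.81 CPM in alveolar macrophages and 190.2 CPM in the Macrophage class, and the endotoxin co-receptor Cd14 was lower at 169 CPM in alveolar macrophages and 415 CPM in the Macrophage class. Msr1, Clec4e, Cd93 and Timd4 made up the rest of the lower genes, and the 219 marked barcodes had no Timd4 UMI. The Fc receptor genes Fcgr1, Fcgr3 and Fcgr4 stayed inside the 2-fold limits.

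The lysosome list had 12 of 28 genes higher and 1 lower, against 15.1% and 12.3% over all counted genes. The protease gene Ctsd stood at 3071 CPM in alveolar macrophages and 242 CPM in the Macrophage class (12.7-fold, 95% interval 11.7 to 13.8), and Ctsk, a collagen-degrading cathepsin, at 332 CPM in alveolar macrophages and 6.10 CPM in the Macrophage class (54.5-fold, 95% interval 33.4 to 95.6). The wider removal raised these ratios to 20.7-fold for Ctsd and 129-fold for Ctsk. Atp6v0d2 stood at 812 CPM in alveolar macrophages and 9.91 CPM in the Macrophage class, where 4 of 283 barcodes held all its UMIs, and the ratio was 81.9-fold, or 246-fold after the wider removal. Gpnmb, a glycoprotein of lysosomes, was 12.8-fold higher, and 99.1-fold after that removal, and 6 Macrophage barcodes held its 30 UMIs there. The other cathepsin genes of the list lay within the limits, from Ctsb at 603 CPM in alveolar macrophages and 623 CPM in the Macrophage class to Ctss at 2490.1 CPM in alveolar macrophages and 1271 CPM in the Macrophage class. The Ctss ratio was 1.96, just inside the limit, and 2.07 without the unmarked barcodes, which passes it.

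Markers of other myeloid cells were mostly lower, where 12.3% of all counted genes were lower. Of 12 counted interstitial macrophage genes 10 were lower and none higher, of 14 monocyte genes 12 were lower and none higher, and all 14 dendritic cell genes and all 6 counted neutrophil genes were lower. C1qa, a chain of complement C1q, had 4 UMIs in 227 alveolar macrophage barcodes and 598 in the Macrophage class, where 22 barcodes held them. Cx3cr1, the fractalkine receptor, had 5 UMIs in alveolar macrophages and 467 in the Macrophage class, spread over 162 barcodes, and its ratio was 0.00823, or 0.00524 without the unmarked barcodes. Ccr2, the receptor that brings monocytes into tissue, stood at 19.3 CPM in alveolar macrophages and 561 CPM in the Macrophage class, and Plac8, abundant in monocytes, at 10.8 CPM in alveolar macrophages and 1545 CPM in the Macrophage class. A single barcode held 27 of the 37 Plac8 UMIs of alveolar macrophages. In the 219 marked barcodes Ccr2 stood at 9.64 CPM and Plac8 at 2.80 CPM. The granule gene S100a9 had 13 UMIs in alveolar macrophages and 3919 in the Macrophage class, in 50 barcodes. The Macrophage class thus held barcodes with C1q, monocyte, dendritic cell and neutrophil RNA, and the ratios set alveolar macrophages against that mixture.

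MHC class II genes, which present antigen to helper T cells, were lower in 8 of 9 cases, against 12.3% of all counted genes. H2-Aa ran from 0 through 0 to 125 UMIs in the 219 alveolar macrophage barcodes and from 0 through 1 to 258 in the Macrophage class. Both classes were uneven, with a UMI in 100 of 219 and 143 of 283 barcodes. Its level was 415 CPM in alveolar macrophages and 3165 CPM in the Macrophage class, a ratio of 0.131, or 0.0873 without the unmarked barcodes. The invariant chain gene Cd74 stood at 1143 CPM in alveolar macrophages and 8366 CPM in the Macrophage class, a ratio of 0.137, or 0.0901 after the wider removal. For the whole list the ratio of class sums was 0.145, and 0.107 without the 8 unmarked barcodes. The median barcodes differed less, at 732 CPM in the 219 alveolar macrophages and 1335 CPM in the Macrophage class. H2-DMa, which loads peptides, stayed within the limits at 320.1 CPM in alveolar macrophages and 421 CPM in the Macrophage class.

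Interferon response genes were lower in 10 of 11 counted cases, with a median log2 ratio of -3.28. The share lower over all counted genes was 12.3%. Ifitm3, which blocks virus entry, stood at 99.7 CPM in alveolar macrophages and 3099 CPM in the Macrophage class, and 76 of 219 alveolar macrophage barcodes but 243 of 283 Macrophage barcodes had a UMI. Ifi27l2a stood at 103 CPM in alveolar macrophages and 993 CPM in the Macrophage class. In the 219 marked barcodes Ifi27l2a stood at 68.1 CPM, and the Ifitm3 ratio was 0.0322 over all barcodes and 0.0118 after the wider removal. Cxcl10, the gene that did not pass the limit, stood at 21.1 CPM in alveolar macrophages and 15.6 CPM in the Macrophage class.

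Chemokines and cytokines went both ways, with 9 of 29 genes higher and 16 lower, against 15.1% and 12.3% over all counted genes. Among chemokines, Ccl6 stood at 3273 CPM in alveolar macrophages and 775 CPM in the Macrophage class (4.22-fold, 95% interval 4.03 to 4.43), and the neutrophil attractant Cxcl2 at 2286 CPM in alveolar macrophages and 888 CPM in the Macrophage class (2.57-fold, 95% interval 2.46 to 2.70). Ccl4 was lower at 37.8 CPM in alveolar macrophages and 783 CPM in the Macrophage class, and stood at 19.0 CPM in the 219 marked barcodes. Ccl3, Ccl9, Ccl17 and Cxcl16 were lower as well. The interleukin-1 family divided. Il18 stood at 594 CPM in alveolar macrophages and 30.9 CPM in the Macrophage class (19.2-fold, 95% interval 15.4 to 24.3), with a UMI in all 219 barcodes, and Il1a and the receptor antagonist gene Il1rn were 5.62-fold and 5.78-fold higher. Il1b was lower at 141 CPM in alveolar macrophages and 1968 CPM in the Macrophage class, a ratio of 0.0717. Tnf was 4.63-fold higher, at 360.2 CPM in alveolar macrophages, and Spp1, osteopontin, 15.6-fold higher. Dissociation of tissue is known to induce such genes. Of the 15 dissociation response genes 6 were lower and none higher, against 12.3% and 15.1% over all counted genes. Fos, at the 2-fold limit, stood at 1888 CPM in alveolar macrophages and 3793 CPM in the Macrophage class, Hspa1a at 311 CPM in alveolar macrophages and 1252 CPM in the Macrophage class, and Egr1 leaned the other way at 1025 CPM in alveolar macrophages and 609 CPM in the Macrophage class. The part of dissociation in these cytokine levels was not tested.

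Iron and redox genes divided, with 12 of 21 counted genes within the limits. The list had 7 higher and 2 lower, against 15.1% and 12.3% over all counted genes. The median log2 ratio was 0.23, against 0.15 over all counted genes, and the ferritin genes of iron storage were among the higher ones. Fth1, the ferritin heavy chain, ran from 57 through 219 to 1332 UMIs in the 219 barcodes and from 1 through 49 to 484 in the Macrophage class, with levels of 16652 CPM in alveolar macrophages and 6626 CPM in the Macrophage class (2.51-fold, 95% interval 2.47 to 2.56). Ftl1, the light chain, was 2.70-fold higher, the peroxiredoxin gene Prdx1 3.29-fold and the metallothionein gene Mt1 5.14-fold. Slc11a1, an iron transporter of phagosomes, and Ncf4, a subunit of the oxidase of phagocytes, were lower at ratios of 0.0394 and 0.249, and the Slc11a1 ratio was 0.0228 without the unmarked barcodes. The 8 mitochondrially encoded genes stayed inside the limits, with a ratio of sums of 1.32.

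Redox genes were prominent among the genes with the highest ratio of variance to mean only after the wider removal, which was chosen after seeing the data. In all 227 alveolar macrophage barcodes Mt1 was the only redox gene among the 10 highest, behind Scgb1a1, Sftpc, Sftpa1, Mgp and Lyz1. In the 219 marked barcodes only Mt1 and Fth1 were among the 10 highest, behind Scgb1a1, Mgp and Sftpc. In the 199 barcodes left after removing unmarked, doublet-marked and epithelial RNA-bearing ones, Mt1 had the highest ratio of variance to mean at 2000 UMIs, 11.6, where the median gene had 1.02. Fth1, Ftl1, Slc7a11, Hmox1 and Prdx1 were also among the 10 highest by this ratio, next to Cd74, Malat1, Lyz2 and the histone gene Hist1h1b. The ratio was not adjusted for level, and Fth1, Lyz2, Malat1 and Ftl1 had high means of 34.6, 30.3, 25.6 and 19.5 UMIs. A single barcode held 32.9% of the Slc7a11 UMIs of the class, and a single barcode 31.2% of its Hmox1 UMIs. In 2 barcodes of 15839 and 14733 UMIs several of the redox genes were high together. Their Prdx1 counts were 306 and 187 UMIs, against a median of 18 and a highest count of 70 in the other 197. Slc7a11, the cystine importer, had 54 and 26 UMIs in them and at most 12 elsewhere. Hmox1, which degrades haem, had 160 and 19, against a median of 1 and a highest count of 36 elsewhere, which exceeds the second barcode. Gclm, of glutathione synthesis, had 27 and 11 against at most 6. Other redox genes stood apart less or not at all. Mt1 had 292 and 54 UMIs against a highest count of 210 elsewhere, and Mt2 19 and 2 against 35. Ftl1 had 528 and 419 UMIs against 865, and Nqo1 had no UMI in either barcode. Both barcodes had Chil3 (112 and 61 UMIs) and Marco (13 and 11) but no Ear2 UMI, where the median of the others was 17. Plet1 had 10 and 0 UMIs in them, against a median of 16 in the others, so 1 of the 2 lacked both Ear2 and Plet1. They were chosen after their values were seen.

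**Figure D3:**
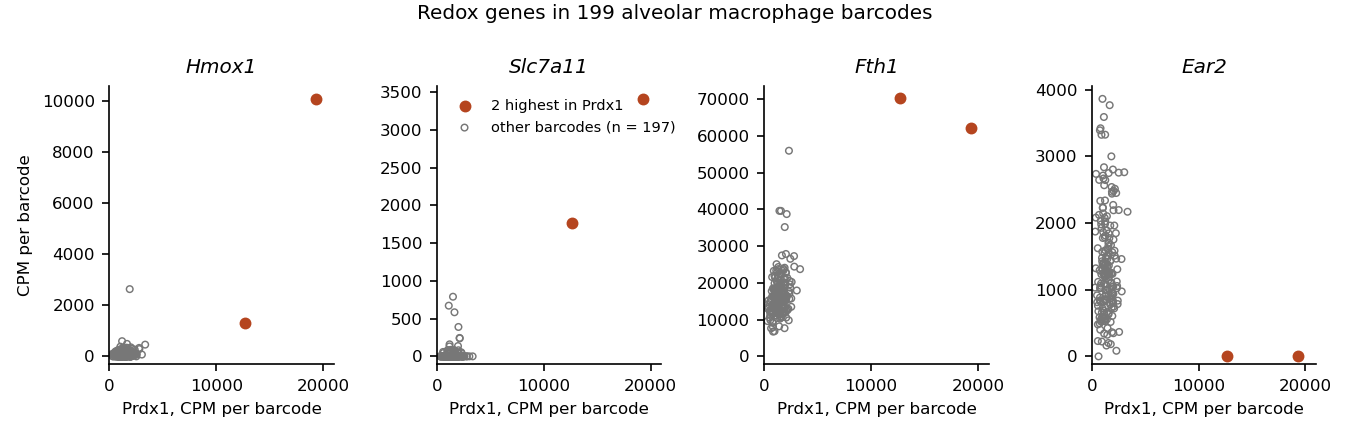
CPM per barcode of Hmox1, Slc7a11, Fth1 and Ear2 against Prdx1 in 199 alveolar macrophage barcodes; filled points are the 2 barcodes highest in Prdx1. Those 2 lie apart in Prdx1 and in Slc7a11 and have no Ear2.

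Cell cycle RNA was commoner in alveolar macrophages, and part of it lay in barcodes that go against the label. All 17 cell cycle genes were higher than in the Macrophage class, against 15.1% of all counted genes. Once the 8 unmarked barcodes were left out, 14 of 15 counted cell cycle genes were higher. The ratio of sums was 11.3 with these barcodes and 6.02 without. The proliferation marker Mki67 stood at 117 CPM in alveolar macrophages and 9.91 CPM in the Macrophage class. In the 219 barcodes its level was 73.1 CPM and its UMIs were found in 39, up to 37 per barcode. At 2000 UMIs per barcode, 19 of 227 alveolar macrophage barcodes (8.37%, exact interval 5.11 to 12.8%) had at least 2 cell cycle UMIs, against 3 of 283 in the Macrophage class (1.06%, 0.219 to 3.07%). Of the 19, 7 were unmarked barcodes. Without these the share was 12 of 219 (5.48%, 2.86 to 9.38%). The 12 carried the 4 markers at 5029.6 to 13802 CPM with a median of 10368, close to the 10396 of all 219, and held 28 to 231 cell cycle UMIs before thinning. None of the 12 was marked as a doublet. In the other marked barcodes the cell cycle UMIs before thinning had a median of 0 and a highest count of 32. In the Fibroblast-1 class the share with 2 or more was 0.169% and in T cells 1.20%.

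The 8 unmarked barcodes carried RNA of other cell types. In 3 of them 15.5 to 21.3% of all UMIs came from the type II pneumocyte list, led by Sftpc, the gene of surfactant protein C, with 4904, 4824 and 3437 UMIs. Another 3 carried 778, 367 and 941 UMIs of MHC class II genes, against a median of 10 in the 219, and the first of these also had 953 Sftpc UMIs. The last 2 had 74 and 59 UMIs of the T cell list, whose median in the 219 was 0. All 8 carried cell cycle RNA, from 29 to 247 UMIs, and Scrublet marked none.

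**Figure D4:**
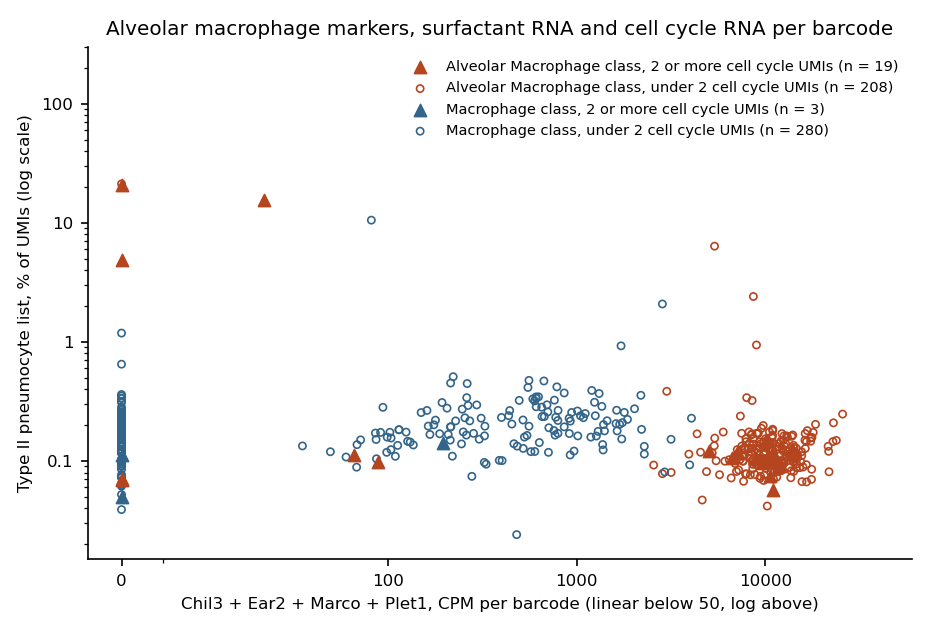
Share of UMIs from the type II pneumocyte list (log axis) against the summed CPM of Chil3, Ear2, Marco and Plet1 for every Alveolar Macrophage barcode (red, n = 227) and Macrophage barcode (blue, n = 283); filled triangles have 2 or more cell cycle UMIs at 2000 UMIs. The 219 marked alveolar macrophages form a group at 2562 CPM or more, and 7 of the 19 triangles of the class lie to the left of it.

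Surfactant RNA in the alveolar macrophage class rested largely on few barcodes. Sftpc stood at 5350.0 CPM in alveolar macrophages and 1848 CPM in the Macrophage class. After the wider removal it stood at 929 CPM in 199 alveolar macrophages and 1022 CPM in 271 Macrophage barcodes. That removal leaves out barcodes for their type II or club RNA, so it lowers genes of those lists by its own rule. The ratio of the whole type II list was 2.51 over all barcodes, 0.597 without the 8 unmarked ones and 0.689 after the wider removal. In the 219 barcodes Sftpc still ran from 3 through 12 to 766 UMIs, and in the Macrophage class from 1 through 9 to 2113. Sftpa1 UMIs per 100 Sftpc UMIs numbered 13.1 in alveolar macrophages, 12.2 in the Macrophage class, 13.4 in T cells and 12.3 in type II pneumocytes. Other genes of the list varied more. In the same order of classes Lyz1 numbered 3.14, 1.28, 0.518 and 0.867 per 100 Sftpc UMIs, and Napsa 1.90, 27.4, 0.852 and 1.03. A single unmarked barcode held 71.6% of the Lyz1 UMIs of alveolar macrophages. After the wider removal Lyz1 numbered 1.76 and Napsa 5.77 per 100 Sftpc UMIs in alveolar macrophages. UMIs of the club cell gene Scgb1a1 were concentrated as well, with 4540 of its 6333 UMIs in 1 barcode. The Scgb1a1 ratio was 3.38 over all barcodes and 0.985 after the wider removal, which leaves out that barcode for its club RNA. For the whole club list the ratio was 3.36 over all barcodes and 3.52 without the 8 unmarked ones. The source of this RNA was not tested.

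Marker lists of the remaining lung cells each summed to 481 CPM or less in alveolar macrophages. The fibroblast list summed to 481 CPM in alveolar macrophages and 1076 CPM in the Macrophage class, a ratio of 0.447, or 0.155 after the wider removal. The T cell list summed to 63.6 CPM in alveolar macrophages and 165 CPM in the Macrophage class. The T cell ratio was 0.385, 0.158 without the unmarked barcodes and 0.0622 after the wider removal. Of the 4 counted T cell genes 2 were lower over all barcodes, against 12.3% of all counted genes. Under either removal 4 were lower. The B cell list summed to 11.4 CPM in alveolar macrophages and 259 CPM in the Macrophage class, a ratio of 0.0441, or 0.0180 without the unmarked barcodes. NK cell genes summed to 58.6 CPM in alveolar macrophages and 111 CPM in the Macrophage class, a ratio of 0.527, or 0.237 after the wider removal. Type I pneumocyte genes summed to 102 CPM in alveolar macrophages and 147 CPM in the Macrophage class, with a ratio of 0.691 and, after the wider removal, 0.383. Endothelial genes stood at 40.5 CPM in alveolar macrophages and 45.0 CPM in the Macrophage class, and ciliated cell genes at 209 CPM in alveolar macrophages and 128 CPM in the Macrophage class. All 5 mast cell or basophil genes had no UMI in alveolar macrophages, and haemoglobin genes summed to 3.52 CPM.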

How the data were processed

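Droplet libraries were made with a Chromium 3′ kit per the labels, and the submitters' processing notes name Cell Ranger 4.0.0 and mm10. The values used here are the authors' raw UMI counts, a matrix of gene symbols by barcodes, with a second deposited table giving each barcode's quality flag and, for singlets, class. The lung table listed 8410 singlet barcodes, of which 6084 passed and had counts and 2326 were not analysed here.

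UMIs were summed per class and scaled to CPM. The ratio of alveolar macrophage to Macrophage CPM used no pseudocount and covered genes of 30 or more UMIs in either class, with an exact conditional binomial 95% interval, and called higher or lower at 2-fold. The rule was checked on simulated counts. Cells of 1 library are not replicates, so no p-value was computed. Intervals and the floor of 3 UMIs cover counting error only, and depth ran from 8393 to 31207 UMIs per alveolar macrophage barcode. Shares used barcodes thinned to 2000 UMIs, which left out no lung barcode, with Clopper-Pearson intervals. Doublets were marked with Scrublet (scanpy 1.11.5, expected rate 0.06), which marked 126 of 6084 barcodes, and kept unless stated. Named genes are the 15 highest and 15 lowest ratios at 100 CPM or more in the higher class, the 15 highest over every other class, the 10 most variable, and members of 27 gene lists, some of which are counted but not reported here by name. The members and the lists were chosen with earlier results of these data known. Alternatives were TMM (edgeR 4.0.16) and median-of-ratios scaling, equal weight per barcode, deeper barcodes, doublets left out, thinning, and other limits. Leaving out unmarked or doubtful barcodes was added after seeing the data. Ear1 and Ear2 sequences came from RefSeq (GRCm38.p6) and GENCODE and were aligned with Biopython 1.88, and both genes matched the promoter table.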

Additional observations from a re-analysis of the deposited data

Results flagged for a closer look

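RNA of the 4 alveolar macrophage markers was also present in the lung multiplet library, which the comparisons above do not use. At 2000 UMIs per barcode, 1070 of 4729 lung multiplet barcodes, or 22.6% (exact 95% interval 21.4 to 23.8%), had at least 2 UMIs of Chil3, Ear2, Marco and Plet1, against 294 of 6084 lung singlet barcodes, or 4.83% (4.31 to 5.40%). Of the 294 singlets, 218 were alveolar macrophages, 51 were of the Macrophage class and 22 were ciliated cells. The rule is thus not specific to alveolar macrophages. The summed level of the 4 genes was 1934 CPM in lung multiplets and 649 CPM in lung singlets. Chil3 stood at 1434 CPM in multiplets and 481 CPM in singlets, and Marco at 38.4 and 9.45 CPM. The median depth was 11934 UMIs in multiplets and 7896 in singlets, and a multiplet holds at least 2 cells, so these shares are not per cell. Of the 4 genes only Plet1 is listed in the intestinal tables, where no barcode reached 2 UMIs.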

How the results depend on the processing

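The counts of genes past the limit depended on the limit and on depth. The 1351 higher and 1099 lower genes became 2401 and 1722 at 1.5-fold, 731 and 701 at 3-fold, 802 and 579 with at least 100 UMIs, 2113 and 2368 with at least 1 UMI in both classes, and 583 and 561 after thinning to 2000 UMIs. At 3-fold, 227 genes were above every other class. The counts stayed within 1.5 times of the reported ones under TMM and median-of-ratios scaling, equal weight per barcode and barcodes of 5000 or more UMIs. The same held for removal of doublets, unmarked or doubtful barcodes. The genes behind the counts changed in part. Of the 1351 higher and 1099 lower genes, equal weight per barcode called 1252 and 1024 again. Removal of doubtful barcodes called 1160 and 1045 of them again, and thinning 460 and 431. The alveolar macrophage share was 4.76% among barcodes of 5000 or more UMIs. Without thinning, 25.6% of alveolar macrophage barcodes had at least 2 cell cycle UMIs. The type II list ratio reversed to 0.597 without unmarked barcodes and to 0.689 without doubtful ones, and the club list ratio reversed to 0.984 without doubtful ones. Among named genes, the Sftpc ratio fell to 0.687 without unmarked and 0.909 without doubtful barcodes, and the Sftpa1 ratio to 0.716 and 0.901. The Scgb1a1 ratio fell to 0.985 without doubtful barcodes. No paired analysis was possible because there is 1 lung singlet library and no test. Depth limits most the genes with few UMIs in either class, such as Marco in the Macrophage class.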
